A study of Mus musculus with 18 samples.

Results

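The CCN matricellular family of the mouse was followed through 6 cell populations. Its 6 members, Ctgf, Cyr61, Nov, Wisp1, Wisp2 and Wisp3, were taken by symbol from the count tables. They are 6 of the 15853 genes that all 3 tables hold. The symbols name a family and rest on no measured value, but they were chosen with earlier results of these data known. RNA sequencing of 3 libraries per population gave 18 libraries. Fresh long bone of Col2.3GFP mice, whose GFP is driven by a fragment of the Col1a1 promoter that is active in maturing osteoblasts, gave sorted GFP+ (hi) and GFP- cells. Bone chip cultures under osteogenic differentiation, also from Col2.3GFP mice, gave the same 2 fractions. Embryonic stem cells (ESC) were set against GFP+ (hi) cells that had been differentiated from Col2.3GFP ESC lines (ESC-OB GFP+). The ESC also carry a treatment label of osteogenic differentiation, but by title and cell type they are plain ESC and are treated here as such. The GFP- fractions of bone and bone chips are mixed by their labels. Ages, the number of animals or cultures behind a library, and pooling are not given in the sources used here, so that p-values measure the spread between these libraries, which may be technical.

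CCN proteins are secreted into the extracellular matrix, where they bind integrins, proteoglycans and growth factors and alter how cells answer to them rather than building the matrix themselves. The typical member is a chain of 4 modules, an IGF-binding-like module, a von Willebrand factor C module, a thrombospondin type 1 module and a cysteine-knot module at the C terminus. Ctgf (connective tissue growth factor, CCN2) is needed for growth plate cartilage and is induced by TGF-beta. Cyr61 (CCN1) is an immediate early gene. Both are classical targets of the coactivators YAP and TAZ, which act through TEAD transcription factors. Nov (CCN3) is known as an inhibitor of osteoblast differentiation, Wisp1 (CCN4) as a Wnt-induced gene of the osteoblast lineage and Wisp2 (CCN5) as the member that lacks the C-terminal module. Loss of human WISP3 (CCN6) causes a childhood cartilage disorder.

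In the GENCODE annotation of NCBIM37, the assembly known as mm9 that the authors used, Ctgf lies at chr10:24315248-24318489 on the plus strand and Wisp3 on the same chromosome at chr10:38870777-38883600 on the minus strand. Nov (chr15:54577257-54585594) and Wisp1 (chr15:66722882-66754763) are both on the plus strand of chromosome 15. Cyr61 lies at chr3:145309935-145312949 on the minus strand and Wisp2 at chr2:163646597-163658882 on the plus strand. All 6 members have 5 exons in the transcript with the longest coding part. That part is 756 bases long in Wisp2 and 1047 to 1140 bases long in the other 5 members. Exons of Ctgf share 570 bases with Gm15270, a lincRNA on the opposite strand, and exons of Wisp3 share 88 bases with Tube1 on the opposite strand. The strand setting of the counting is not stated, so reads of these stretches cannot be assigned to a strand.

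The RefSeq promoter table (GRCm38.p6) matched 2 of the 6 members, Cyr61 and Wisp3, which were the highest and the lowest member of the family in fresh bone GFP+ (hi) cells. The 250 bases before each start are given 5′ to 3′ on the strand of the gene, because the TEAD motif is the sequence through which YAP and TAZ reach their targets. Capitals mark matches, on either strand, to the TEAD motif CATTCC, the TATA box TATAAA and the core of the cAMP response element, TGACG. None of these matches overlapped another. Each sequence had 1 exact match on its chromosome in NCBIM37, at chr3:145312950-145313199 for Cyr61 and at chr10:38883601-38883850 for Wisp3, both on the minus strand.
Cyr61: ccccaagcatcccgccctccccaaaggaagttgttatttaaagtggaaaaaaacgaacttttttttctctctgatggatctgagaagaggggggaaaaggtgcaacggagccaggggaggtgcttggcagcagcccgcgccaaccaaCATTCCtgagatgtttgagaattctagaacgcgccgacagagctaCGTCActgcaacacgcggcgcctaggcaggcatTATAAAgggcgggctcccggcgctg
Wisp3: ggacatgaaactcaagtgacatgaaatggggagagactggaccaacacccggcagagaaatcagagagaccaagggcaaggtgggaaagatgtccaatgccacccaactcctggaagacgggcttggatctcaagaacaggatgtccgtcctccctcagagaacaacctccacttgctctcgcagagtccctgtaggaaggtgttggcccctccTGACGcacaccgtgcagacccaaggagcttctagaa
The Cyr61 window held the TEAD motif (its first base at -103 from the start), the TATA box (-25) and, on the opposite strand, the cAMP response element core (-58). The Wisp3 window held only the cAMP response element core (-36) of the 3. Among 32851 RefSeq promoters cut to the same length, 12.6% held the TEAD motif, 12.4% the TATA box and 17.8% the cAMP response element core.

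Total counts were 5482065 to 6468750 in bone GFP- libraries, 21425212 to 43874837 in bone GFP+ (hi) libraries and 4920502 to 21213214 in ESC, with those of the other 3 populations between 9829832 and 26596873. Values within a source are CPM, counts relative to the size of the library, scaled by TMM factors so that their sums differ between libraries. Between 36.2 and 37.5% of each bone GFP+ (hi) library was Col1a1, and scaling to library totals in place of TMM moved the median log2 difference of all genes tested from 0.00 to -1.06 in fresh bone, from -0.04 to -0.60 in bone chips and from 0.22 to 0.44 in ESC differentiation. Bone GFP+ (hi) replicates 1 and 3 had 6 and 5 counts of Ddx3y, a gene of the Y chromosome, against 379 to 882 counts in the 4 other bone libraries. Both were left out together in fresh bone and in the interaction, and this is given where it changed a result. In the comparisons between sources they were not left out together. The summed level of 12 osteoblast and osteocyte markers was 842755 to 892105 CPM in bone GFP+ (hi) cells and 11555 to 23082 CPM in bone GFP- cells. In bone chips it was 307553 to 373251 CPM and 45136 to 54114 CPM. In ESC-OB GFP+ libraries it was 5502 to 15515 CPM against 248 to 418 CPM in ESC, but Bglap, which encodes osteocalcin, stood there at 0.0691, 1.32 and 0.0805 CPM. Of 7 markers tested against ESC, 6 were called higher and 1, Alpl (-3.09), lower, beside 43.0% and 34.7% of all genes. Against bone GFP+ (hi) cells 11 of the 12 were called lower (median -7.04), beside 27.8% of all genes. Against bone chip GFP+ (hi) cells all 12 were lower (median -7.57), beside 28.6%. The part of this in the Wisp1 result was not tested. Fibroblast markers summed to 2264 to 2762 CPM in ESC-OB GFP+ libraries and to at most 1561 CPM elsewhere, and pluripotent cell markers to 5676 to 6608 CPM in ESC. The latter were at 20.7 to 27.8 CPM in bone GFP+ (hi) libraries and 0.229 to 0.77 CPM in bone GFP- libraries. All 7 tested were called higher in fresh bone GFP+ (hi) cells, beside 19.5% of all genes tested. In ESC-OB GFP+ libraries the pluripotent cell markers were at 22.7 to 32.8 CPM, and their part in the results on the family was not tested. The share of Rn45s, a ribosomal RNA precursor, was 8.01 to 12.5% in bone chips against 0.0561 to 0.342% in bone, and 5.72 to 7.95% in ESC against 0.29 to 0.69% in ESC-OB GFP+ libraries, and its part was not tested either. In these bulk libraries, fewer cells of a type and less RNA per cell cannot be told apart.

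To compare levels between genes, TMM-scaled CPM of a joint table of 18 libraries were divided by the exon length in kilobases (RPKM). Cyr61 was the highest member in 5 of the 6 populations. Its level was 2307 ± 55.2 RPKM (SD, n = 3) in bone GFP+ (hi) cells, 1883 ± 111 in bone GFP- cells, 1147 ± 188 in ESC-OB GFP+ cells, 760 ± 15.6 in bone chip GFP+ (hi) cells and 356 ± 47.4 in bone chip GFP- cells. In ESC, Ctgf was the highest member at 11.3 ± 1.48 RPKM, and Cyr61 followed at 7.06 ± 1.78. The sum of the 6 members was 2648 ± 128 RPKM in bone GFP- cells and 2629 ± 50.4 in bone GFP+ (hi) cells, a difference smaller than the spread among the GFP- libraries under TMM scaling. Most of both sums was Cyr61, whose difference was -0.91 on the log2 scale with library totals. In bone chips the sum was 820 ± 152 RPKM in GFP- cells and 1219 ± 25.1 in GFP+ (hi) cells. ESC had a sum of 18.8 ± 2.68 RPKM, and their GFP+ progeny had 1664 ± 237.

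**Figure D1:**
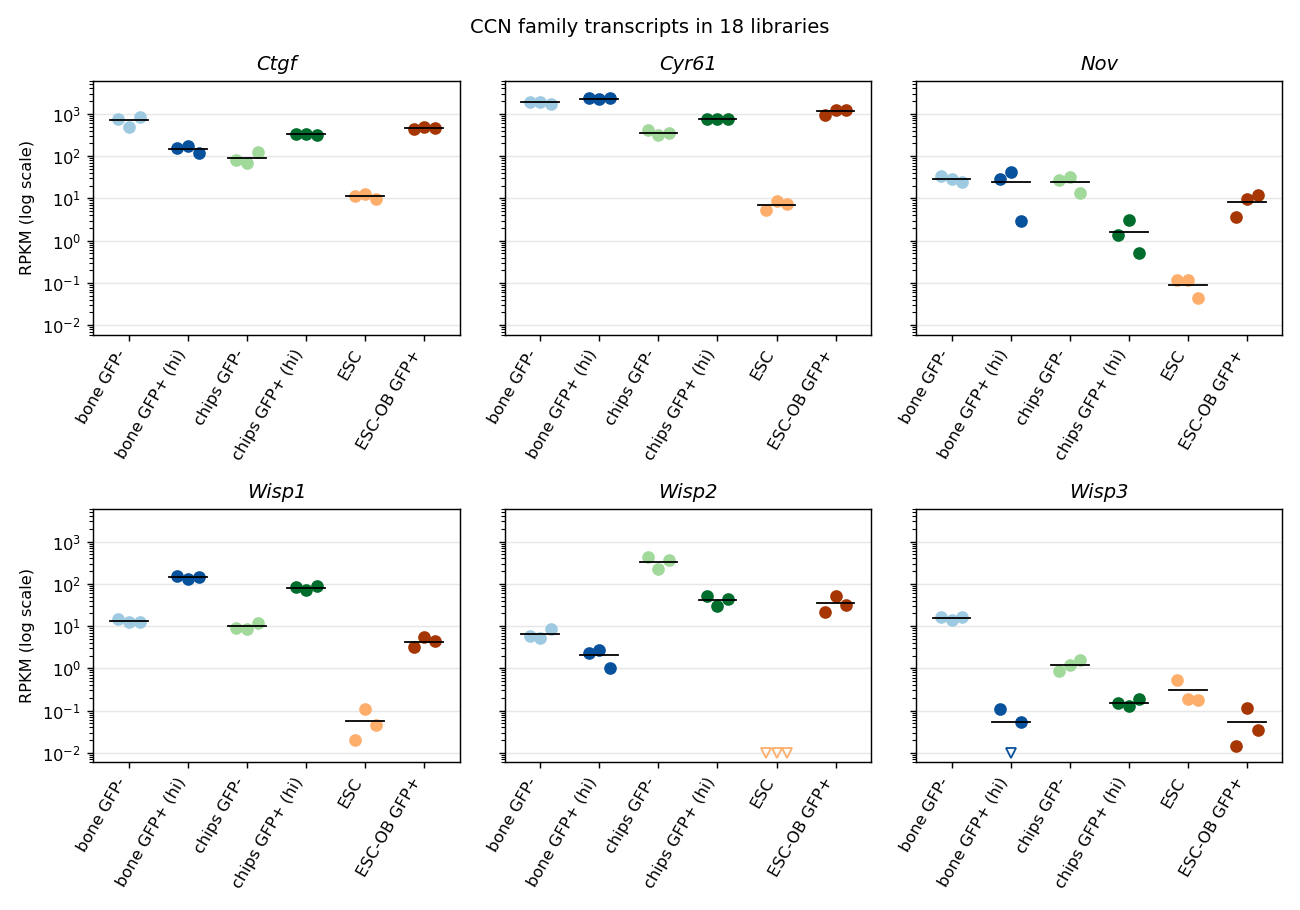
Level of each member in RPKM on a log axis, 1 point per library and a bar at the mean of the 3 libraries of a population; open triangles at the bottom are libraries with 0 counts. Outside ESC, Cyr61 is at 316 RPKM or more, and Wisp3 is at 14.2 RPKM or more in bone GFP- cells and at most 1.6 RPKM elsewhere.

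Below Cyr61 the order of the members changed from population to population. Ctgf was second in bone GFP- cells (700 ± 190 RPKM), bone GFP+ (hi) cells (150 ± 27.3), bone chip GFP+ (hi) cells (334 ± 8.41) and ESC-OB GFP+ cells (468 ± 31.5). In bone GFP+ (hi) cells Wisp1 (144 ± 11.4) followed Ctgf so closely that their ranges overlapped. In bone chip GFP- cells Wisp2 came second at 337 ± 99.6 RPKM, and its range of 227 to 422 overlapped that of Cyr61, 316 to 409. Wisp2 made up 40.5 ± 5.05% of the family's RPKM there, 0.251 ± 0.0667% in bone GFP- cells and 0.0767 ± 0.033% in bone GFP+ (hi) cells. Wisp1 made up 5.49 ± 0.354% in bone GFP+ (hi) cells and 6.58 ± 0.614% in bone chip GFP+ (hi) cells, but 0.256 ± 0.0352% in ESC-OB GFP+ cells. Wisp3 was last in all populations except bone GFP- cells, where it stood above Wisp1 and Wisp2 at 15.6 ± 1.24 RPKM, and ESC, where it followed Cyr61 at 0.303 ± 0.208 RPKM.

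**Figure D2:**
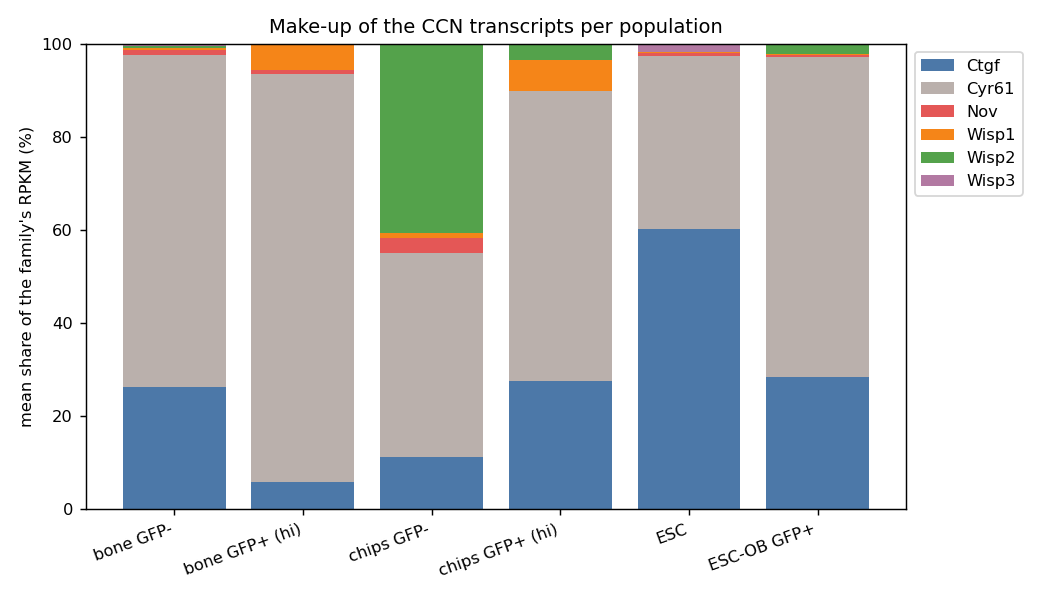
Mean share of each member in the summed RPKM of the family, in percent, for the 6 populations (bars reach 100). Cyr61 takes 87.8% in bone GFP+ (hi) cells, Wisp2 takes 40.5% in bone chip GFP- cells, and Ctgf takes 60.2% in ESC.

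Each GFP+ population was compared with the reference of its own source by edgeR's quasi-likelihood test, and a gene was called when its Benjamini-Hochberg adjusted p over all genes tested was below 0.05. In fresh bone, 1 of the 6 members was called higher in GFP+ (hi) cells and 3 were called lower, where 19.5% of 12559 genes were called higher and 22.1% lower. In bone chips all 6 were called, 3 higher and 3 lower, where 20.4% of 12841 genes were called higher and 23.1% lower. In ESC differentiation all 5 members tested were called higher in ESC-OB GFP+ cells, where 43.0% of 15415 genes were called higher and 34.7% lower. Whether the GFP effect differed between fresh bone and bone chips was tested by the interaction in 1 fit of 12 libraries. Here 3 members were called with a lower effect in bone and 1 with a higher effect, where 15.6% and 14.7% of 13574 genes were called so. With so few members, these counts say nothing of the family as a group, and the members are described below 1 by 1.

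**Figure D3:**
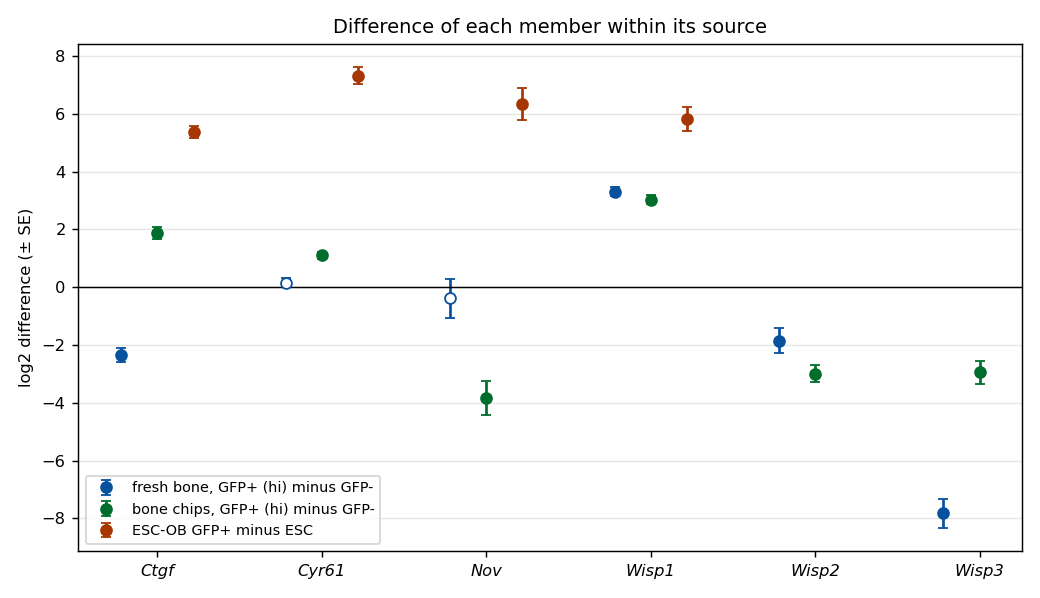
Log2 difference of each member within its source, with the SE of the edgeR fit; filled points were called and open points were not. Wisp1 is above 0 in all 3 sources, Ctgf is below 0 in fresh bone and above 0 in bone chips, and Wisp2 and Wisp3 of the ESC comparison are not drawn, because Wisp2 had 0 counts in ESC and Wisp3 did not pass the filter.

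Ctgf went in opposite directions in the 2 bone sources. In fresh bone it stood at 1273, 846 and 1467 CPM in GFP- libraries and at 243, 277 and 185 CPM in GFP+ (hi) libraries. All GFP- libraries were above all GFP+ (hi) libraries, and the level was 5.09-fold lower in GFP+ (hi) cells (log2 difference -2.35 ± 0.24 (SE), edgeR adjusted p = 6.5e-05). In bone chips, GFP- libraries had 185, 154 and 275 CPM, and GFP+ (hi) libraries had 750, 770 and 731 CPM. Here the GFP+ (hi) libraries were the higher ones, by 3.66-fold (1.87 ± 0.21, adjusted p = 5.9e-04). The difference between the 2 effects was itself called (-4.21 ± 0.36 on the log2 scale, edgeR adjusted p = 3.7e-06). Both directions were the same under all scalings tried. ESC libraries had 47.5, 52.8 and 40.4 CPM of Ctgf and ESC-OB GFP+ libraries had 1804, 2036 and 1969 CPM, which is 41.1-fold higher (5.36 ± 0.21, adjusted p = 1.3e-08).

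Cyr61, like Ctgf a classical target of YAP and TAZ, did not share this pattern. It stood at 2676, 2759 and 2441 CPM in bone GFP- libraries and at 2939, 2919 and 2929 CPM in bone GFP+ (hi) libraries. The GFP+ (hi) libraries were all higher, but by 1.12-fold, and the difference was not called (0.16 ± 0.15, edgeR adjusted p = 0.446). Scaled to library totals, the direction turned to -0.91 on the log2 scale (adjusted p = 0.00251), beside a median of all genes of -1.06 under that scaling. In bone chips Cyr61 rose from 744, 576 and 628 CPM in GFP- libraries to 1393, 1364 and 1419 CPM in GFP+ (hi) libraries, 2.14-fold (1.10 ± 0.12, adjusted p = 5.1e-04). The interaction was called, with the effect in bone 0.94 ± 0.19 lower on the log2 scale (adjusted p = 0.0029). From 17.7, 29.6 and 24.3 CPM in ESC it rose 160-fold to 3155, 4253 and 4177 CPM in ESC-OB GFP+ cells (7.32 ± 0.30, adjusted p = 1.4e-08).

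The ratio of Ctgf to Cyr61 within a library does not depend on how libraries are scaled. Per exon length it was 0.387, 0.250 and 0.489 in bone GFP- libraries and 0.0673, 0.0772 and 0.0514 in bone GFP+ (hi) libraries. In bone chips it went the other way, from 0.203, 0.218 and 0.357 in GFP- libraries to 0.439, 0.460 and 0.420 in GFP+ (hi) libraries. It was 0.466, 0.390 and 0.384 in ESC-OB GFP+ libraries and 2.19, 1.45 and 1.36 in ESC. Within each source the ranges of the 2 populations did not overlap. ESC were thus the population with more Ctgf than Cyr61 in each library, and the ratios of bone GFP+ (hi) cells were the lowest of the 18.

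Wisp1 was higher in the GFP+ cells of all 3 sources. In fresh bone it rose from 55.4, 48.5 and 46.7 CPM in GFP- libraries to 526, 467 and 503 CPM in GFP+ (hi) libraries, 9.93-fold (3.31 ± 0.15, edgeR adjusted p = 5.3e-07). In bone chips it rose 8.20-fold, from 44.7, 43.3 and 58.1 CPM to 418, 349 and 432 CPM (3.03 ± 0.16, adjusted p = 3.2e-05). The 2 effects differed by 0.28 ± 0.21 on the log2 scale, and this difference was not called (adjusted p = 0.346). In ESC it was close to absent, with 0.184, 0.999 and 0.419 CPM (1, 18 and 2 counts), and reached 28.9, 49.1 and 40.2 CPM in ESC-OB GFP+ libraries (5.82 ± 0.41, adjusted p = 3.9e-07).

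Nov, the inhibitor, fell in bone chips. GFP- libraries of bone chips had 69.5, 81.6 and 33.7 CPM and GFP+ (hi) libraries had 3.60, 7.89 and 1.36 CPM, 14.4-fold lower (-3.84 ± 0.60, edgeR adjusted p = 0.00228). In fresh bone the GFP- libraries had 66.8, 57.5 and 49.2 CPM, and the GFP+ (hi) libraries were far apart from each other at 52.3, 76.6 and 5.06 CPM. Replicate 3 alone was below all GFP- libraries, and the difference was not called (-0.38 ± 0.67, adjusted p = 0.688). Over 16 alternatives it ranged from -1.44, with library totals (adjusted p = 0.0834), to 0.42, without GFP+ (hi) replicates 1 and 3. None of the alternatives called it, and without GFP+ (hi) replicate 3 alone it was 0.16. The interaction for Nov was called (3.45 ± 1.05, adjusted p = 0.0253), but leaving out bone GFP+ (hi) replicate 2, bone chip GFP+ (hi) replicate 1 or bone chip GFP+ (hi) replicate 3 gave an adjusted p of 0.0606, 0.0621 and 0.0599. In ESC differentiation Nov rose from 0.553, 0.555 and 0.209 CPM (3, 10 and 1 counts) to 17.4, 45.3 and 56.1 CPM (6.33 ± 0.56, adjusted p = 1.9e-06).

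Wisp2 was lower in the GFP+ (hi) cells of both bone sources, at levels that differed widely between the sources. Fresh bone held 7.70, 7.09 and 11.6 CPM in GFP- libraries and 2.72, 3.35 and 1.25 CPM in GFP+ (hi) libraries, 3.61-fold lower (-1.85 ± 0.43, edgeR adjusted p = 0.00723). Without GFP+ (hi) replicates 1 and 3 the difference was -1.37 and was no longer called (adjusted p = 0.0553). Bone chips held 729, 394 and 626 CPM in GFP- libraries and 89.4, 53.2 and 77.8 CPM in GFP+ (hi) libraries, 7.94-fold lower (-2.99 ± 0.29, adjusted p = 3.0e-04). The 2 effects differed by 1.13 ± 0.48 on the log2 scale, which was not called (adjusted p = 0.0929), although leaving out bone GFP- replicate 3, bone GFP+ (hi) replicate 3 or bone chip GFP- replicate 2 brought it under the threshold at 0.0492, 0.0229 and 0.0240. ESC had 0 counts of Wisp2 in all 3 libraries, and ESC-OB GFP+ libraries had 68.2, 165 and 101 CPM. Against a floor of 3 counts over the ESC group, ESC-OB GFP+ cells had at least 1008-fold higher Wisp2.

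Wisp3 was highest in bone GFP- cells. Its counts were 141, 122 and 137 in bone GFP- libraries and 3, 0 and 1 in bone GFP+ (hi) libraries, which have larger totals. This corresponds to 15.5, 14.0 and 16.0 CPM against 0.0962, 0 and 0.0482 CPM. Over the summed counts the level was 252-fold higher in GFP- cells, with a 95% interval for counting error alone of 97.8 to 931 (edgeR adjusted p = 3.4e-06). In bone chips the counts were 13, 24 and 44 in GFP- libraries and 2, 2 and 3 in GFP+ (hi) libraries, 8.34-fold higher in GFP- cells (interval 3.87 to 21.4, edgeR adjusted p = 0.00115). The interaction was called (-4.91 ± 0.78, adjusted p = 5.0e-04). ESC had 7, 8 and 2 counts and ESC-OB GFP+ libraries 1, 6 and 2, and Wisp3 did not pass the filter on low counts there. Relative to library size it was 5.07-fold higher in ESC (interval 2.14 to 12.9), and its adjusted p was 0.0515 with no filter and 0.00399 in 1 fit of 18 libraries. The overlapping gene Tube1 had 25, 30 and 28 counts in bone GFP- libraries and 15, 6 and 0 in bone GFP+ (hi) libraries, fewer than Wisp3 in each GFP- library. In bone chips Tube1 had 21, 32 and 31 counts in GFP- libraries and 30, 43 and 20 in GFP+ (hi) libraries, more than Wisp3 in all of them except GFP- replicate 3. It also had more counts than Wisp3 in all ESC (63, 273 and 62) and ESC-OB GFP+ libraries (241, 74 and 138).

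Markers of cartilage moved with Ctgf and Wisp3 in fresh bone. Beside 22.1% of all genes tested, 12 of 13 chondrocyte markers were called lower there (median log2 difference -7.32). Their summed level was 113268 to 228190 CPM in bone GFP- libraries and 10788 to 13846 CPM in bone GFP+ (hi) libraries, and no marker was at 0 in either group. The exception was Col11a2, which was not called (0.70) and which, with a mean of 9227 CPM, made up most of the sum in bone GFP+ (hi) cells. Among the defining genes, Col10a1, the collagen of hypertrophic cartilage, was at 1080, 481 and 1058 CPM in bone GFP- libraries and at 2.66, 1.50 and 1.06 CPM in bone GFP+ (hi) libraries. In bone chips, where Ctgf was higher and Wisp3 lower in GFP+ (hi) cells, the test called 2 of the 13 markers higher and 5 lower (median 0.04). Of all genes tested there, 20.4% were called higher and 23.1% lower. Col2a1, the main collagen of cartilage, was not called there (0.04). The summed level in bone chips was 5784 to 9909 CPM in GFP- libraries and 9616 to 11520 CPM in GFP+ (hi) libraries, and Col11a2 accounted for most of this difference, with means of 232 and 1929 CPM. The part of cartilage cells in the Ctgf and Wisp3 results was not tested. Marrow stromal and adipocyte markers, 8 in all, moved with Wisp2 in bone chips. There 6 were lower and 1 higher in GFP+ (hi) cells (median -1.95), beside 23.1% and 20.4% of all genes. They did not in fresh bone, where, beside 19.5% and 22.1% of all genes, 2 of 4 tested were higher and 1, Cxcl12 (-2.18), was lower (median 1.12). Their summed level was 1294 to 2270 CPM in bone chip GFP- libraries, 237 to 255 CPM in bone chip GFP+ (hi) libraries, 29.8 to 38.5 CPM in bone GFP- libraries and 26.1 to 38.1 CPM in bone GFP+ (hi) libraries, where Adipoq was at 0. Most of the sum in bone chip GFP- libraries was Cxcl12 (2157, 1197 and 2024 CPM), and the part of such cells in the Wisp2 result was not tested. Fibroblast and mesenchymal progenitor markers, 10 in all, moved with Wisp2 in both sources. In fresh bone 9 were lower in GFP+ (hi) cells and 1, Pdgfra (2.17), was higher (median -3.07), beside 22.1% of all genes called lower. In bone chips all 8 tested were lower (median -3.14), beside 23.1% of all genes. The part of fibroblasts in the Wisp2 result was not tested either.

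The genes most like each member were sought by Pearson's r of log2(CPM + 1) over the 18 libraries among 10824 genes that reached 10 CPM in the mean of a population. These r describe the 6 populations, whose libraries share a source and a preparation in sets. Wisp3 was most like Bpifb1 (r = 0.986), Mia (0.982) and Gjc3 (0.981), and Mia, a secreted protein of cartilage, had a mean of 491 CPM in bone GFP- cells and at most 8.88 CPM elsewhere. Wisp1 was most like Zbtb7c, Bmp1 and Fkbp7 (0.984 each). Bmp1, the protease that trims procollagen I, had 2553 CPM in bone GFP+ (hi) cells, 702 CPM in bone chip GFP+ (hi) cells, 223 and 178 CPM in the GFP- cells of bone and bone chips, and 94.4 CPM in ESC-OB GFP+ cells. Wisp2 was most like the chemokine gene Cxcl12 (0.995), then Ptx3 (0.988) and the complement protease gene C1rb (0.980). Nov was most like Matn2 (0.934), Zswim4 (0.922) and Angptl7 (0.921). Ctgf was most like Tmbim1 (0.990), Vamp8 (0.948) and Rgmb (0.946), and Cyr61 was most like Tmem66 (0.992), Slc35f5 (0.989) and Cgrrf1 (0.989). Among the members themselves r was highest for Ctgf and Cyr61 (0.89) and lowest for Wisp1 and Wisp3 (-0.01).

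A joint fit of 18 libraries set the GFP+ cells of the 3 sources against each other. The comparisons share populations, and source, culture and preparation cannot be told apart in them. All bone chip libraries had at most 1 count of Ddx3y and 3068 to 11573 counts of Xist, where bone GFP- libraries had 379 to 882 and 0 to 10, so that these genes differed between the sources as well, here and in the interaction. From fresh bone to bone chips, 2 members were called higher in GFP+ (hi) cells and 3 lower, where 29.2% of 14782 genes were called higher and 29.9% lower. Wisp2 was 21.1-fold higher in bone chips (4.40 ± 0.41, edgeR adjusted p = 2.1e-07) and Ctgf 2.22-fold higher (1.15 ± 0.22, adjusted p = 2.6e-04). Nov was 14.9-fold lower (-3.90 ± 0.75, adjusted p = 2.4e-04) and Cyr61 3.03-fold lower (-1.60 ± 0.19, adjusted p = 1.1e-06). Wisp1 was 1.80-fold lower (-0.85 ± 0.21, adjusted p = 0.00187), a call that was lost when libraries were scaled to their totals (-0.07, adjusted p = 0.768). Wisp3 was not called at 1.18 ± 0.87 (adjusted p = 0.253).

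From bone GFP+ (hi) to ESC-OB GFP+ cells, 2 members were called higher and 3 lower, beside 30.7% and 27.8% of all genes. Wisp1 was 33.5-fold lower in ESC-OB GFP+ cells (-5.07 ± 0.24, edgeR adjusted p = 3.9e-11). Wisp2 was 17.4-fold higher (4.12 ± 0.40, adjusted p = 3.2e-07) and Ctgf 3.12-fold higher (1.64 ± 0.23, adjusted p = 7.5e-06). Wisp1 was the member with the largest difference under TMM, but with library totals it stood at -3.01 and Wisp2 at 6.17. Cyr61 was lower by -1.01 ± 0.18 (adjusted p = 1.5e-04) but higher by 1.05 with library totals (adjusted p = 1.6e-05), a scaling that moved the median of all genes here from 0.08 to 2.14. The call of Nov (-1.56 ± 0.64, adjusted p = 0.0452) was lost in 9 of 14 alternatives, among them a replicate block that joined the sources by number alone. Wisp3 was not called (-0.31 ± 0.82, adjusted p = 0.763).

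Between the 2 cultured sources, 2 members were called higher in ESC-OB GFP+ cells and 1 lower, beside 34.1% and 28.6% of all genes. Wisp1 was again the lower one, by 18.6-fold (-4.22 ± 0.23, edgeR adjusted p = 1.6e-10). Nov was 5.03-fold higher (2.33 ± 0.72, adjusted p = 0.00933) and Cyr61 1.51-fold higher (0.59 ± 0.18, adjusted p = 0.00909). The call of Cyr61 was lost without ESC-OB GFP+ replicate 2 or 3 (adjusted p = 0.0523 and 0.0632). Ctgf (0.49 ± 0.22, adjusted p = 0.0626), Wisp2 (-0.27 ± 0.33, adjusted p = 0.493) and Wisp3 (-1.49 ± 0.75, adjusted p = 0.0940) were not called. Library totals made Ctgf (1.77) and Wisp2, whose direction turned (1.01), called. Ctgf also passed the threshold with upper-quartile factors (edgeR adjusted p = 0.0186) and with DESeq2 (adjusted p = 0.0499). Wisp3 passed it with libraries thinned to the smallest (-3.15, edgeR adjusted p = 0.0432) and without ESC-OB GFP+ replicate 2 (-2.50, adjusted p = 0.0119).

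Between the GFP- cells of bone and bone chips, 1 member was called higher in bone chips and 3 lower, beside 31.6% and 29.2% of all genes. Wisp2 was 50.7-fold higher in bone chip GFP- cells (5.66 ± 0.42, edgeR adjusted p = 1.4e-08). Wisp3 was 12.5-fold lower (-3.64 ± 0.48, adjusted p = 4.3e-06), Ctgf 7.63-fold lower (-2.93 ± 0.24, adjusted p = 1.2e-08) and Cyr61 5.29-fold lower (-2.40 ± 0.19, adjusted p = 1.1e-08). Wisp1 (-0.43 ± 0.21, adjusted p = 0.0864) and Nov (-0.30 ± 0.63, adjusted p = 0.702) were not called. Wisp1 passed the threshold with upper-quartile factors (edgeR adjusted p = 0.0106), with DESeq2 (adjusted p = 0.0322), with thinned libraries (edgeR adjusted p = 0.022) and without bone chip GFP- replicate 3 (adjusted p = 0.0461). The levels of Ctgf thus differed between the sources in both fractions, higher in the GFP+ (hi) cells and lower in the GFP- cells of bone chips.

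Genes of the pathways around the family were counted by lists from which the members were left out. The counts of every list below stand beside these shares of all genes tested. In fresh bone 19.5% were called higher and 22.1% lower, in bone chips 20.4% and 23.1%, and in ESC differentiation 43.0% and 34.7%. With library totals, 7789 of 8485 genes called were lower in fresh bone and 7921 of 8979 in bone chips. Of 20 other target genes of YAP and TAZ, 18 were tested in fresh bone, where 6 were higher in GFP+ (hi) cells and 11 lower, with a median log2 difference of -0.98 beside 0.00 over all genes tested. The largest falls were F3 (tissue factor, -3.19), Tgfb2 (-2.84) and Nuak2 (-2.38), and the largest rises Asap1 (1.63), Dock5 (1.27) and Lats2 (1.11), a kinase of the Hippo pathway. Without bone GFP+ (hi) replicates 1 and 3 the calls were 4 higher and 5 lower, and with library totals 1 higher and 12 lower. In bone chips 1 of the 20, Tgfb2 (0.62), was higher and 9 were lower, with a median of -0.55 beside -0.04 over all genes, and with library totals 16 were lower. The falls were led by Axl (-3.50), Nuak2 (-2.32) and Foxf2 (-2.25). Ctgf and Cyr61 were thus higher in bone chip GFP+ (hi) cells, while 9 of the 10 other targets called were lower. Of all 5581 genes called there, 2967 were lower. The remaining 10 of the 20 targets were not called, and the part of YAP and TAZ in these results was not tested. In ESC differentiation 18 of 20 were higher and 1, Dock5 (-1.63), was lower, with a median of 4.39 beside 0.22.

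The components of the Hippo pathway itself, with the TEAD factors and their cofactors, make up a list of 20 genes. In fresh bone 18 were tested, 7 were higher in GFP+ (hi) cells and 2 lower, with the median at 0.51. Tead2 (3.53), Tead3 (1.54) and Dchs1 (1.36) rose most, and Tead4 (-4.05) and Wwtr1 (-0.83), which encodes TAZ, fell. With library totals the split was 1 higher and 7 lower, and without bone GFP+ (hi) replicates 1 and 3 it was 2 higher and 1 lower. In bone chips 2 were higher, Wwc1 (3.22) and Tead4 (1.20), and 6 lower, led by Vgll3 (-3.06), Fat4 (-2.14) and Amot (-1.18), and with library totals 2 were higher and 16 lower. In ESC differentiation 9 were higher and 9 lower. Tead4 thus moved in the directions of Ctgf in both bone sources but against it in ESC differentiation (-2.41), and its interaction was called (-5.26 ± 0.62, edgeR adjusted p = 4.7e-05), as was that of Wwtr1 (-1.03 ± 0.21, adjusted p = 0.00263).

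SRF and MRTF targets, mostly genes of the contractile cytoskeleton, were counted in a list of 15. The list also holds Srf, Mkl1 and Mkl2, which encode SRF and MRTF factors themselves. Of these, Mkl1 was called lower in bone chips (-1.13) and higher in ESC differentiation (0.76), and is in the counts. In fresh bone 3 of 13 tested were higher and 6 lower in GFP+ (hi) cells (median -0.79), with Myl9 (-2.58), Acta2 (-2.31) and Tagln (-2.22) the largest falls and Cnn2 (3.99), Tpm1 (1.86) and Flna (1.11) the rises. In bone chips 1, Tpm1 (0.61), was higher and 12 were lower (median -0.95), led by Cnn1 (-2.89), Tpm2 (-2.32) and Tagln (-2.18). In ESC differentiation 12 were higher (median 5.74) and 3 were not called. With library totals the splits were 2 higher and 10 lower in fresh bone and 14 lower in bone chips, and without bone GFP+ (hi) replicates 1 and 3 fresh bone gave 3 higher and 3 lower. Of 9 immediate targets of TGF-beta, 6 were lower in bone GFP+ (hi) cells (median -1.16), where 22.1% of all genes tested were called lower. In bone chip GFP+ (hi) cells 4 were lower (median -0.54), beside 23.1% of all genes. In each source the other targets were not called. With library totals 9 were lower in fresh bone and 7 in bone chips, and without bone GFP+ (hi) replicates 1 and 3 fresh bone gave 5 lower. Tgfbi fell in both (-3.70 and -3.50), as did Pmepa1 (-1.66 and -1.13) and Ltbp2 (-1.54 and -4.26). Skil, Tgfbi, Pmepa1, Ltbp2, Bhlhe40 and Ldlrad4 made up the 6 that were higher in ESC-OB GFP+ cells.

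Cyr61 belongs to the immediate early genes, of which 13 others were counted. In fresh bone 3 were higher in GFP+ (hi) cells, Zfp36 (1.01), Ier3 (0.84) and Atf3 (0.77), and 1, Nr4a1 (-1.52), was lower (median 0.20), while library totals gave 9 lower. In bone chips 1, Atf3 (2.04), was higher and 5 were lower (median -0.38), led by Nr4a1 (-1.87), Dusp1 (-0.81) and Fosb (-0.80), and library totals gave 1 higher and 12 lower. All 13 were higher in ESC-OB GFP+ cells than in ESC (median 7.81), where 43.0% of all genes tested were called higher. Egr1 (11.88), Egr2 (10.80) and Fos (10.35) were the largest. Their summed level was 149 to 183 CPM in ESC and 13835 to 17866 CPM in ESC-OB GFP+ libraries, 12483 to 13912 and 14515 to 15716 CPM in GFP- and GFP+ (hi) libraries of bone, and 7209 to 8091 and 4837 to 6619 CPM in those of bone chips. ESC were thus the lowest population for these genes, as for Cyr61, and their part in the Cyr61 result was not tested. Without bone GFP+ (hi) replicates 1 and 3 the calls in fresh bone were 1 higher and 1 lower.

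Wisp1 is named for its induction by Wnt, and 12 other targets of canonical Wnt signalling were counted. In fresh bone 5 of 10 tested were higher in GFP+ (hi) cells, with Dkk1 (7.25), Rnf43 (4.95) and Nkd2 (4.28) the largest, and 2 were lower, Nkd1 (-3.35) and Lef1 (-3.34), with the median at 1.80. In bone chips 4 of 11 were higher, led by Dkk1 (4.47), Rnf43 (4.16) and Tcf7 (1.03), and 4 were lower, led by Lgr5 (-2.98), Lef1 (-2.20) and Nkd1 (-1.81), and library totals gave 2 higher and 5 lower. In ESC differentiation 5 were higher, led by Lgr5 (10.66), Nkd2 (6.99) and Nkd1 (6.92), and 6 lower, led by Tcf7 (-3.50), Axin2 (-3.04) and Znrf3 (-2.17). Dkk1, a secreted Wnt antagonist, and Rnf43, a ubiquitin ligase that removes Wnt receptors, were called in the direction of Wisp1 in each source. Lef1 was called against Wisp1 in each source (-3.34, -2.20 and -1.33). The part of Wnt signalling in the Wisp1 result was not tested.

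The receptors through which CCN proteins are known to act are chiefly integrins, with the coreceptors Lrp1, Lrp6 and Sdc4. Of 14 such genes, 11 were tested in fresh bone. Itgb1 (0.94) was higher in GFP+ (hi) cells and 4 were lower, led by Itga6 (-5.10), Sdc4 (-3.27) and Itga5 (-2.08), and library totals gave 9 lower. In bone chips Itgb3 (2.04) and Itgb1 (0.42) were higher and 6 were lower, led by Notch1 (-2.14), Itga2b (-1.81) and Itga6 (-1.65), and library totals gave 1 higher and 8 lower. Itgam (5.26) and Itgb5 (3.99) led the 10 of 14 that were higher in ESC-OB GFP+ cells. Of 6 growth factor genes whose products CCN proteins bind, Bmp4 (1.99) and Tgfb1 (1.42) were higher and Fgf2 (-2.66) and Igf1 (-2.36) lower in bone GFP+ (hi) cells, with 1 higher and 4 lower under library totals, and 2 higher and 1 lower without bone GFP+ (hi) replicates 1 and 3. In bone chips Bmp2 (3.36) and Tgfb1 (1.12) were higher and Igf1 (-2.21) was lower, with 2 higher and 3 lower under library totals. All 6 were higher in ESC-OB GFP+ cells, led by Bmp2 (9.37) and Igf1 (9.20), beside 43.0% of all genes tested.

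**Figure D4:**
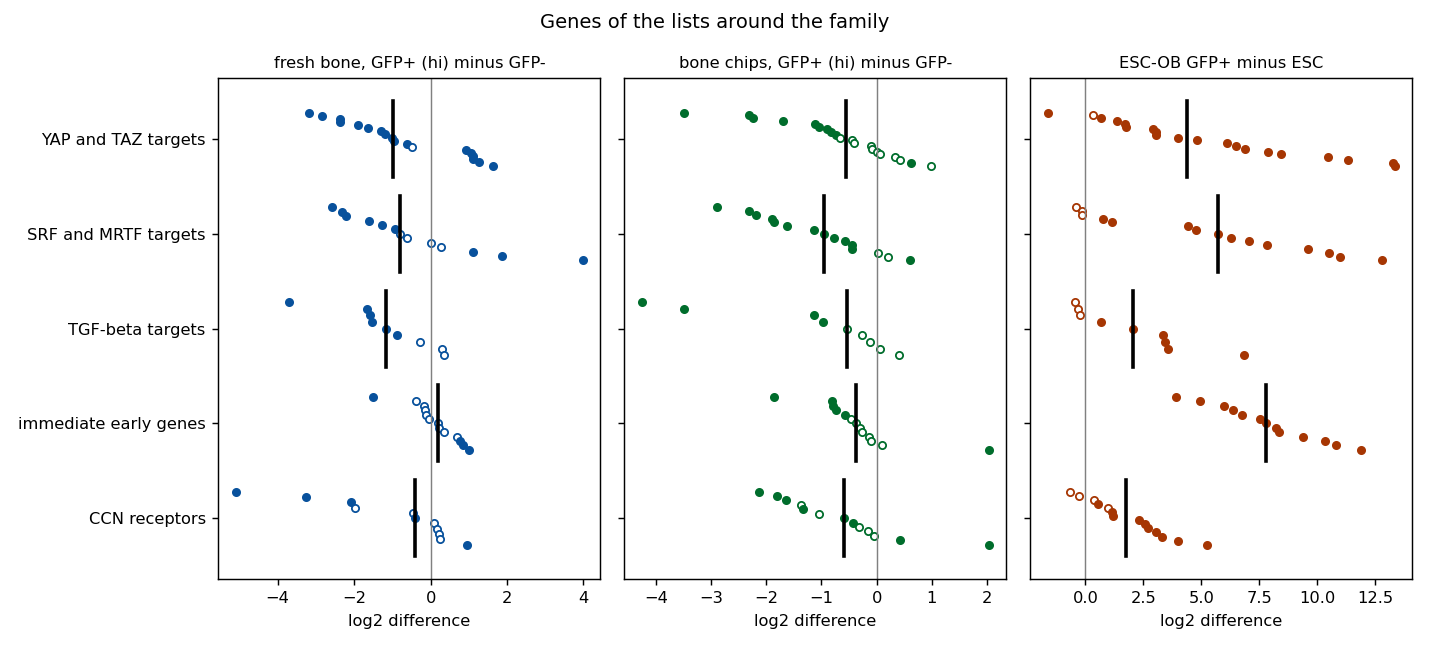
Log2 difference of the genes of 5 lists in the 3 comparisons within a source, 1 point per gene tested, filled where called, with a line at the median of the list; the horizontal scales differ between panels. The median of the YAP and TAZ targets is -0.98 in fresh bone, -0.55 in bone chips and 4.39 in ESC differentiation.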

How the data were processed

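RNA of 18 libraries was measured by sequencing. The authors purified poly-A RNA and used mm9, and the submitters' processing notes name STAR 2.4.2a, DESeq2 and R 3.2.2. The deposited tables, 1 per source, hold raw counts per gene. The counting tool and its strand setting are not given in the sources used here. Repeated, date-like symbols removed 4 rows of ESC data.

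From the counts, each source was tested with edgeR 4.0.16 under R 4.3.3 (filterByExpr with a minimum count of 10, TMM factors, quasi-likelihood test, no covariates). Adjusted p-values are Benjamini-Hochberg values over all genes tested, called under 0.05, and SE is the log2 difference divided by the root of the F statistic. Bone and bone chips were joined for the interaction, and all 18 libraries for comparisons between sources and for levels per kilobase of GENCODE exons. Intervals and floors cover counting error only. At the smallest total, 4920502 counts, scarce genes such as Wisp3 rest on single counts. Simulated counts with known changes served to check the fit. Genes of low mean count were not changed in them, and they held no shift like that of Col1a1. They therefore cannot check the scaling or the results on scarce genes.

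Replicate numbers come from the titles. Residuals of same-numbered libraries correlated by 0.158, 0.329 and 0.396 in bone chips and by at most 0.0305 in the other sources. The numbers were thus taken to pair the bone chip libraries. The main values, also those of the interaction, leave this pairing out, and a replicate block was an alternative. In comparisons between sources the block joined libraries by number alone, across sources with no known pairing. The other alternatives were RLE and upper-quartile factors, library totals, no filter, a filter of 1 CPM in 3 libraries, DESeq2 1.42.0, thinning, 1 fit of 18 libraries, each library left out, and bone GFP+ (hi) replicates 1 and 3 left out together, which for the interaction was added after seeing the data. Levels were also computed with the longest transcript.

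The members, lists and tests were chosen with earlier results of these data known. The genes named are the members, the 3 genes most like each in pattern (clone and predicted symbols left out), up to 3 called genes of each list with the largest changes in each direction, and defining markers, except 1 gene that is not reported here. Skil, Bhlhe40, Srf, Mkl1, Mkl2, the ESC value of Tead4, the interactions of Tead4 and Wwtr1, Ddx3y, Xist, Rn45s and Tube1 fall outside it and were added with their values in view. Python 3.11.15 with pandas 2.3.3 made the summaries.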

Additional observations from a re-analysis of the deposited data

Results flagged for a closer look

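The GFP+ against GFP- difference of 4 members was not the same in fresh bone as in bone chips, by edgeR's interaction test over 12 libraries (3 per population). Of 13574 genes tested, 15.6% were called with a lower effect in bone and 14.7% with a higher effect, and so few members say nothing of the family as a group. On the log2 scale the effect in fresh bone minus that in bone chips was -4.21 for Ctgf, -0.94 for Cyr61, 3.45 for Nov and -4.91 for Wisp3. For Ctgf, all 3 GFP+ (hi) libraries were below all 3 GFP- libraries in fresh bone and above them in bone chips. For Wisp3 the direction was the same in both sources, and the value rests on 3, 0 and 1 counts in bone GFP+ (hi) libraries. The call for Nov was lost without bone GFP+ (hi) replicate 2 (2.83), bone chip GFP+ (hi) replicate 1 (3.36) or bone chip GFP+ (hi) replicate 3 (3.03). Outliers were not sought, since each population has 3 libraries.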

How the results depend on the processing

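Scaling to library totals reversed Cyr61 in fresh bone (-0.91), Cyr61 (1.05) and Nov (0.48) between ESC-OB GFP+ and bone GFP+ (hi) cells, and Wisp2 between ESC-OB GFP+ and bone chip GFP+ (hi) cells (1.01), where it made 5 members called in place of 3. Genes called rose with it from 5231 to 8485 in fresh bone, from 5581 to 8979 in bone chips and from 8650 to 13348 between ESC-OB GFP+ and bone GFP+ (hi) cells. Their split became 696 higher and 7789 lower in fresh bone and 1058 higher and 7921 lower in bone chips, beside 2455 and 2776, and 2614 and 2967, with TMM. Between sources it became 12709 and 639, beside 4545 and 4105, from bone to ESC-OB GFP+ cells, 10304 and 1545, beside 5034 and 4231, from bone chips to ESC-OB GFP+ cells, and 7379 and 1847, beside 4322 and 4421, from bone to bone chip GFP+ (hi) cells. For the interaction it became 1021 and 3882, beside 1991 and 2117. Without bone GFP+ (hi) replicates 1 and 3, fresh bone gave 3288 genes called, and Wisp2 stood at -1.37 and was not called; fewer libraries entered that fit. The cause of the other changes was not tested. In bone chips and ESC differentiation the members tested kept their direction and call in all 15 alternatives. In fresh bone, Ctgf stayed between -3.38 and -2.09 and Wisp1 between 2.25 and 3.45 in 16 alternatives. The replicate block left the members called at 4 in fresh bone, 6 in bone chips and 5 in ESC differentiation. It ended the call of Nov between ESC-OB GFP+ and bone GFP+ (hi) cells (-1.16, edgeR adjusted p = 0.125). Between these sources same-numbered libraries have no known pairing, so that this block cannot judge the call. With the longest transcript in place of all exons, 34 of 36 levels moved by less than 1 SD, and with library totals 19 of 36. Depth limits Wisp3 outside bone GFP- cells and Wisp1, Wisp2 and Nov in ESC, which rest on at most 44 and 18 counts per library.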

Other observations

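The ratio of Wisp1 to Wisp2 per exon length, which no scaling of libraries changes, was 67.2, 48.6 and 140 in bone GFP+ (hi) libraries and 2.51, 2.38 and 1.41 in bone GFP- libraries. It was 1.63, 2.29 and 1.93 in bone chip GFP+ (hi) libraries and 0.0214, 0.0384 and 0.0324 in bone chip GFP- libraries. In ESC-OB GFP+ libraries it was 0.148, 0.104 and 0.139. The GFP+ (hi) cells of bone chips thus stood at the ratio of bone GFP- cells, and ESC-OB GFP+ cells lay below both and above bone chip GFP- cells. No test was run on these ratios.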
